A study of Mus musculus with 30 samples.

Results

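The 43 genes described here build and run the primary cilium, the single antenna-like projection on which vertebrate cells receive Hedgehog signals. They were chosen by their known place in the cilium, with earlier results of these data in view, and all 43 were found among the 36047 genes summed from the transcript tables. They fall into 6 genes of the intraflagellar transport complex IFT-A, 11 of IFT-B, 10 of the BBSome and its assembly, 5 motor subunits, 3 carriers or modifiers of ciliary membrane proteins, and 8 of the transition zone and ciliary base.

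The cells were NIH3T3-CG, a derivative of the mouse embryonic fibroblast line NIH3T3 whose suffix the labels do not explain. Cells transduced with Prrx1 were sequenced with doxycycline and, as their reference, without it, so both groups carried the construct. In the transfections, cells received Prrx1, Snai1, Egr1, Jun or Srebf2, and controls received a control plasmid. One set of controls served Prrx1 and Snai1, another served Egr1 and Jun, and Srebf2 had its own. Each of the 10 groups held 3 libraries, whose origin in separate cultures is not stated, so the p-values cover no more than the spread among these libraries, which may be technical. The time after delivery and any Hedgehog ligand are not stated by the labels. By its title the series concerns cell-to-cell variability of Hedgehog signalling, and each comparison asks which genes changed when 1 factor was raised. In the transduced cells the drug doxycycline and Prrx1 change together. No cells without the construct received the drug, so their effects cannot be told apart.

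Motors carry protein trains along the ciliary axoneme. Kinesin-2 moves IFT-B-led trains outward to the tip, dynein-2 returns them with IFT-A, and the BBSome rides the trains to take receptors out of the cilium. The transition zone at the base gates what enters. Smoothened and the Gli factors pass through this compartment, and fibroblasts such as NIH3T3 make a cilium mostly when they leave the cell cycle. The files hold RNA, so they show neither cilia nor trains, and in bulk RNA fewer cells expressing a gene cannot be told apart from less RNA per cell.

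Many ciliary genes carry an X-box, the site of RFX factors, near their start. RefSeq windows on GRCm38.p6 running from 250 bases before to 50 bases after each gene's start were matched by symbol for 39 of the 43 genes (41 windows). The form GTNNCCNNNGNAAC, searched on both strands, lay in 7 of these 39 genes (17.9%), against 2.49% of all 27025 genes with a window. The form with 1 base less, GTNNCCNNGNAAC, lay in 2 genes, Ift57 and Ift74 (5.13%, against 1.81% of all). The short core GTTGCC, which overlaps both longer forms in part, lay in 17 (43.6%, against 14.1%). The matches to the longer forms are printed because the X-box is a well-known promoter feature of ciliary genes. The shares are a description with no test, and most of the 39 genes hold neither longer form. Each is given 5′ to 3′ on the gene's strand with the match in capitals.

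Bbs1 (chr19:4906605-4906634, minus strand): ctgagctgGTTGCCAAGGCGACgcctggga
Bbs4 (chr9:59353464-59353493, minus strand): ctcagctgGTCGCCCGGGAAACggtcggct
Bbs7 (chr3:36613489-36613518, minus strand): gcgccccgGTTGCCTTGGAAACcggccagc
Ift22, first (chr5:136908079-136908108, plus strand): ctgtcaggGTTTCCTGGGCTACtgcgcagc
Ift22, second (chr5:136908109-136908138, plus strand): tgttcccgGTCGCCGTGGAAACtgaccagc
Ift57, longer form (chr16:49699199-49699228, plus strand): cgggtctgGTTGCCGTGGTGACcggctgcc
Ift57, shorter form (chr16:49699226-49699254, plus strand): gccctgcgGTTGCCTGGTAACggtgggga
Mks1 (chr11:87853183-87853212, plus strand): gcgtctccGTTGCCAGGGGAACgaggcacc
Tctn1 (chr5:122264411-122264432, minus strand): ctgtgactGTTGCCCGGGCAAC
Ift74, shorter form (chr4:94614478-94614506, plus strand): cggtgaccGTTGCTAGGATACgcggcgtc

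These matches lay within 114 bases of the start in every case. Among the 8 genes with a match, only Ift74 was called changed in any comparison against a control (below, with Srebf2), and no test of the motif against the changes was made.

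All 43 genes were detected in all 30 libraries, with at least 14 estimated counts each and a median of 468, and all passed the low-count filter in every fit. Levels are given as CPM per kilobase of transcript (CPM per kb, the count scaled to the library total and to length) or as TPM, which also allows for length. By mean TPM, the highest were Ift46, an IFT-B subunit, at 72.9 TPM (range 50.8 to 121.7 over the 30 libraries), Ift20, an IFT-B subunit also found at the Golgi, at 50.9 TPM (36.9 to 59.7), and Tulp3, which links IFT-A to receptor cargo, at 49.4 TPM (39.0 to 58.2). The lowest were Bbs10, a chaperonin-like factor of BBSome assembly, at 1.36 TPM (0.509 to 3.13), Dync2h1, the dynein-2 heavy chain, at 3.45 TPM (0.928 to 10.7), and Bbs4, a BBSome subunit, at 3.77 TPM (2.60 to 7.94).

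On the CPM per kb scale, IFT-B had the highest median level of the 6 groups, at 11.0, and the BBSome the lowest, at 4.77. Tulp3 led the order there at 29.8 CPM per kb, with Kifap3 at 27.95 and Ift74 at 26.7 next, and Bbs10 closed it at 0.909. The ranges of neighbours in this order overlapped over the 30 libraries in all 42 pairs. Kifap3 is the non-motor subunit of kinesin-2.

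**Figure D1:**
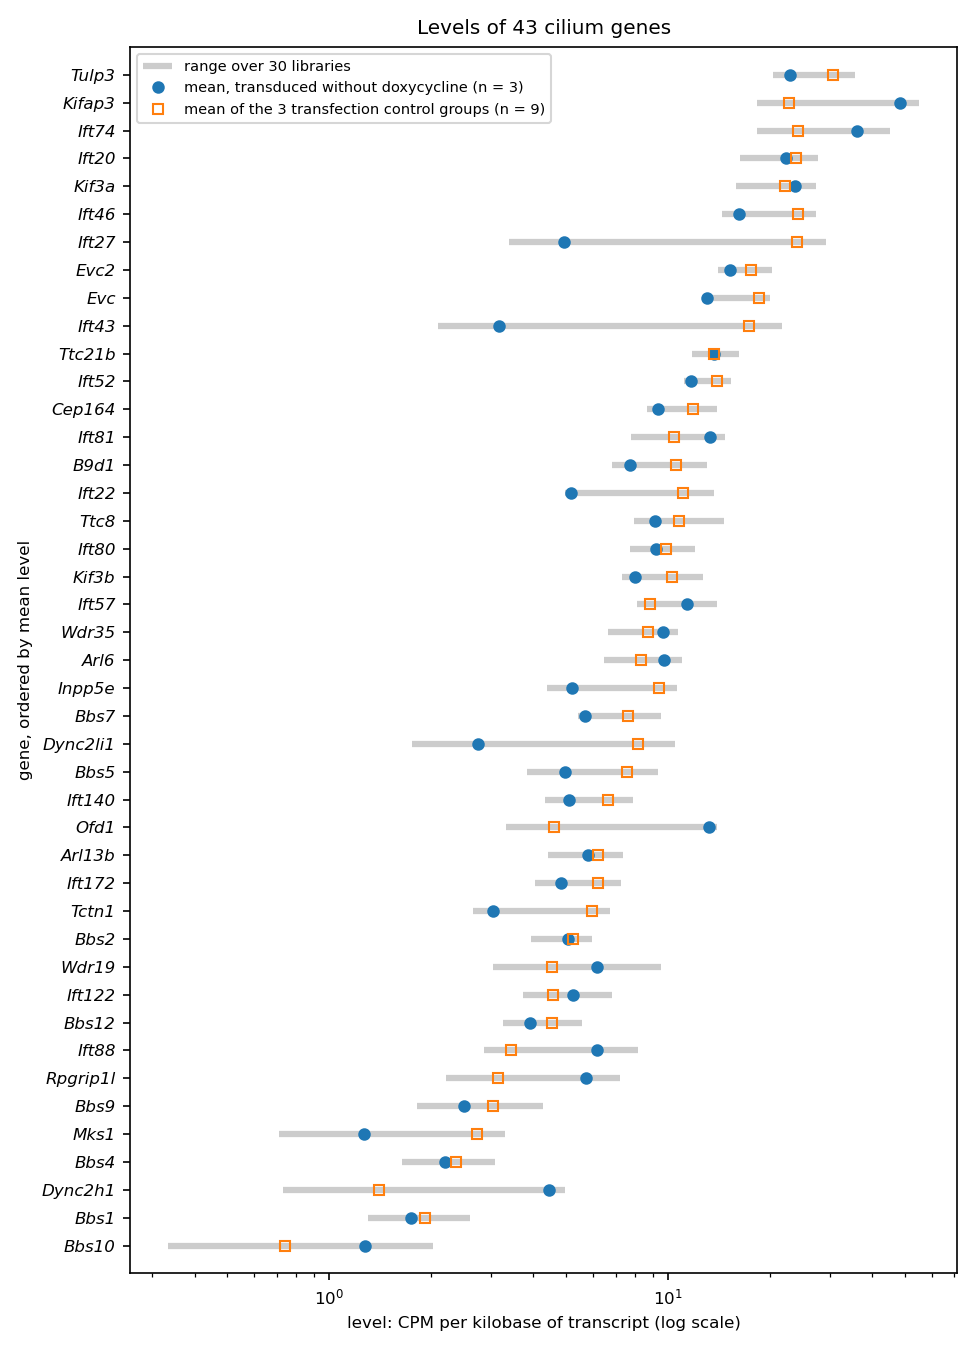
Level of each of the 43 genes in CPM per kilobase of transcript, on a log axis. Grey bars span the 30 libraries, filled circles are the mean of the 3 transduced libraries without doxycycline and open squares the mean of the 9 transfection controls. Most pairs of symbols lie close together, and Ift27, Ift43 and Dync2li1 (circle left) and Dync2h1 and Ofd1 (circle right) lie furthest apart.

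Transduced cells without doxycycline differed in level from the 9 transfection controls in some genes. In 13 genes the 3 transduced libraries lay below all 9 controls, in 6 above, and in 24 the ranges overlapped. Over the 12052 genes tested in every experiment the shares were 32.2% below and 27.9% above, so such differences were no more frequent among the 43 genes. Ift43, a small IFT-A subunit, stood at 2.10 to 4.36 CPM per kb in transduced libraries, against 13.1 to 21.4 in the controls, and Ift27, a small GTPase of IFT-B, at 4.06 to 5.98 against 20.0 to 29.2. Dync2h1 stood at 3.60 to 4.96 against 0.731 to 1.75 CPM per kb, and Ofd1, a protein of centrioles and satellites, at 12.4 to 13.7 against 3.89 to 5.42. Delivery, experiment and library properties differ together here and cannot be told apart. The mean fragment length implied by the deposited effective lengths was 162 to 175 bases in the transduced libraries without doxycycline, against 229 to 287 in the controls. Retained-intron transcripts held 6.57 to 8.74% of the 43 genes' counts, against 2.32 to 3.22%. Over all genes they held 5.39 to 6.43%, against 2.74 to 3.14%, so this shift was not particular to the 43 genes. The 4 endothelial markers summed to 11.7 to 16.9 TPM in the transduced libraries, against 0.945 to 4.75 TPM in the controls, nearly all from Pecam1 in the transduced ones (10.7 to 16.8 TPM), with Kdr and Tek under 1 TPM throughout. The 5 neural markers summed to 4.28 to 5.96 TPM, against 9.65 to 60.5 TPM. The part of these markers was not tested. The rank correlation of the level ratio with transcript length was 0.36 over the 43 genes, which share these libraries.

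Depth was 7996355 to 37068611 estimated counts per library, lowest in the transduced ones. Each delivered factor rose where it was delivered, by 3.86-fold for Prrx1 with doxycycline to 123-fold for Snai1. Some factors also moved where another was delivered. With doxycycline, Egr1 (log2 -0.71, edgeR adjusted p = 0.00388) and Jun (-0.48, 0.0354) were lower. With Srebf2, Prrx1 was higher (0.26, 0.00193) and Jun lower (-0.35, 0.000699). Fibroblast markers summed to 8397 to 13510 TPM in every library, and 12 motile-cilium markers to 4.63 to 10.5 TPM. Of these 12, 10 averaged under 1 TPM, among them Foxj1 at 0.157 and Mcidas at 0.0741, while Ccdc39 averaged 3.98 TPM (2.49 to 6.29). Summed epithelial markers reached 188 TPM in 1 Egr1 library and neural markers 60.5 TPM in 1 Egr1 and Jun control.

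Of the 258 changes measured (43 genes in 6 comparisons against controls), 7 passed edgeR's quasi-likelihood test at an adjusted p under 0.05, all with Srebf2, and none reached a log2 fold change of 1 in size. The largest among those called was 0.40, and the largest of all 0.57.

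**Figure D2:**
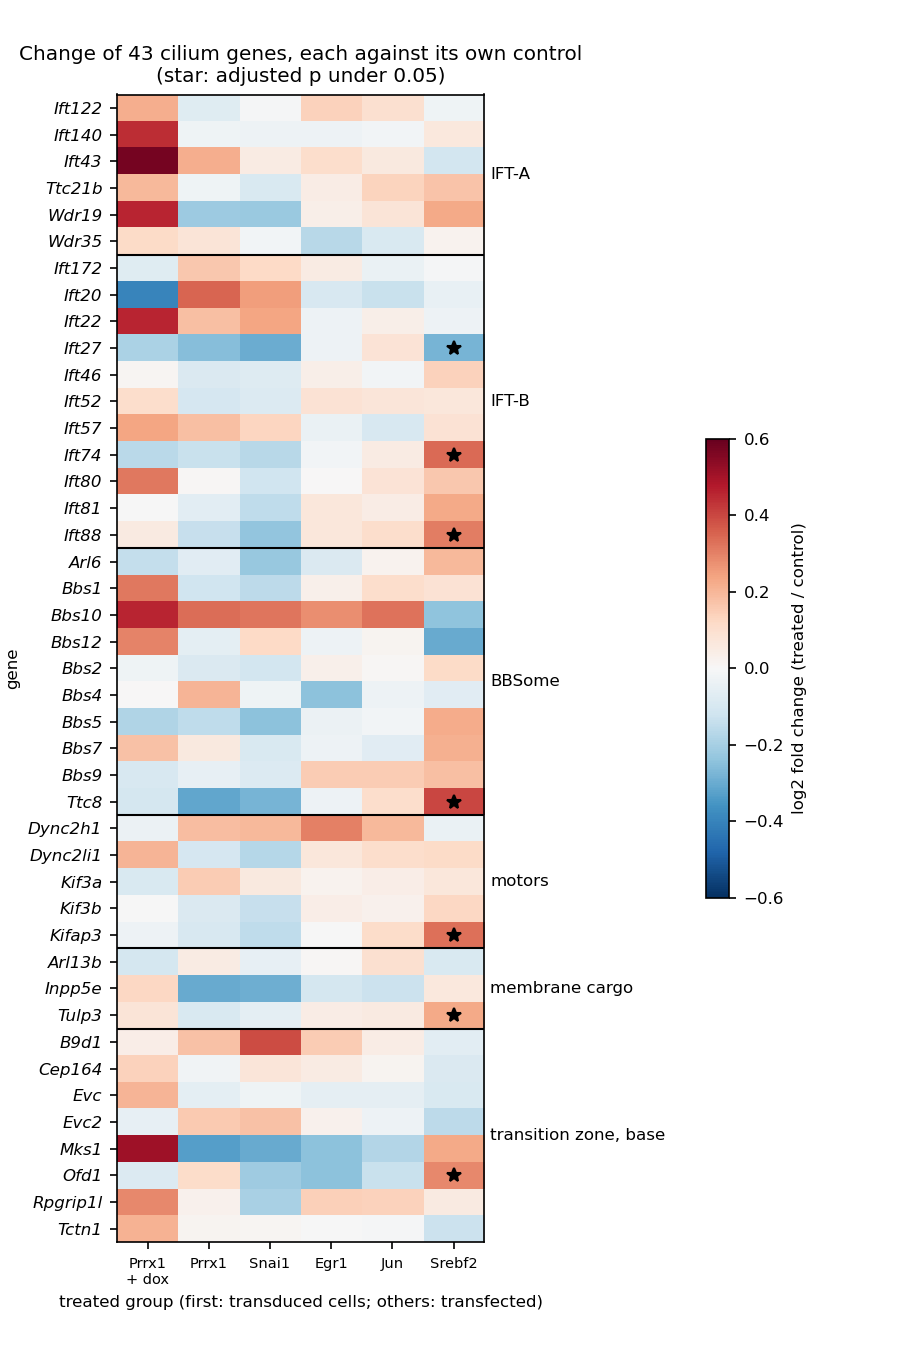
Log2 fold change (treated over control) of the 43 genes, grouped by complex, in the 6 comparisons. Stars mark the 7 changes with an adjusted p under 0.05, all in the Srebf2 column. In the first column all 6 IFT-A genes are positive, without a star.

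With Srebf2, the activator of cholesterol synthesis genes, 6 of the 43 genes rose and 1 fell. This is 16.3% of the genes, beside 17.3% of the 12730 genes tested (8.63% higher and 8.68% lower), so the share called lay near the background and is no result about these genes. DESeq2 called 5 of the 7, beside 15.2% of all genes. In 10 genes all Srebf2 libraries lay above all controls and in 5 below, beside 18.2% and 17.4% of all genes. The median log2 fold change of the 43 was 0.07, beside 0.01 for all genes tested. The called genes were Kifap3 among the motors, Ift74 and Ift88 (up) and Ift27 (down) in IFT-B, Ttc8 in the BBSome, Tulp3 among the membrane carriers and Ofd1 at the base. No IFT-A gene was called.

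Kifap3 had 115, 114 and 121 CPM in Srebf2 libraries, against 88.1, 96.5 and 94.8 CPM in controls. All Srebf2 libraries lay above all controls, and the gene rose 1.26-fold (log2 0.33 ± 0.05 SE, edgeR adjusted p = 0.000872). The other subunits of the same motor were not called: Kif3a had a log2 fold change of 0.07 and Kif3b of 0.12. Ift74, which forms with Ift81 the tubulin-binding part of IFT-B, had 48.0, 48.8 and 55.2 CPM in Srebf2 libraries, against 40.0, 40.6 and 39.6 CPM in controls. The groups did not overlap, and it rose 1.27-fold (log2 0.34 ± 0.07 SE, edgeR adjusted p = 0.00248), while its partner Ift81 had a log2 fold change of 0.23 ± 0.12 and was not called.

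Ttc8, the BBSome subunit also called Bbs8, had 26.7, 28.4 and 32.8 CPM in Srebf2 libraries, against 22.8, 21.3 and 22.6 CPM in controls. It rose 1.32-fold without overlap, the largest called change (log2 0.40 ± 0.09 SE, edgeR adjusted p = 0.00491). Tulp3 had 107, 110 and 112 CPM in Srebf2 libraries, against 96.2, 94.3 and 90.4 CPM in controls. It rose 1.17-fold, again without overlap (log2 0.23 ± 0.05 SE, edgeR adjusted p = 0.00725). Kifap3 and Ttc8 stayed called in all 14 other settings tried, Tulp3 in 13 and Ift74 in 11, with adjusted p from 1.86e-06 to 0.111 over these 4 genes.

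The other calls were less steady. Ift27, needed to clear the BBSome and its cargo from the cilium, had 23.1, 21.7 and 21.2 CPM in Srebf2 libraries, against 24.3, 29.2 and 26.6 CPM in controls, and fell to 0.824-fold without overlap (log2 -0.28 ± 0.08 SE, edgeR adjusted p = 0.0306). Ift88, an IFT-B core subunit without which cilia do not form, had 13, 11.9 and 13.1 CPM in Srebf2 libraries, against 10.5, 9.70 and 10.5 CPM in controls, 1.24-fold (log2 0.31 ± 0.10 SE, edgeR adjusted p = 0.0470). Ofd1 had 19.2, 22.9 and 23.6 CPM in Srebf2 libraries, against 17.3, 19.4 and 17.2 CPM in controls. Its groups overlapped by 1 library, and it rose 1.22-fold (log2 0.29 ± 0.09 SE, edgeR adjusted p = 0.0411). Leaving out 1 library of 6 kept the call of Ift27 in 2 of 6 cases, of Ofd1 in 1 and of Ift88 in 0. The count over the 43 genes was 4 without Srebf2 replicate 2, Srebf2 replicate 3 or control replicate 2, and these 4 were Kifap3, Ift74, Ttc8 and Tulp3 each time. No share over all genes is given for these fits.

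**Figure D3:**
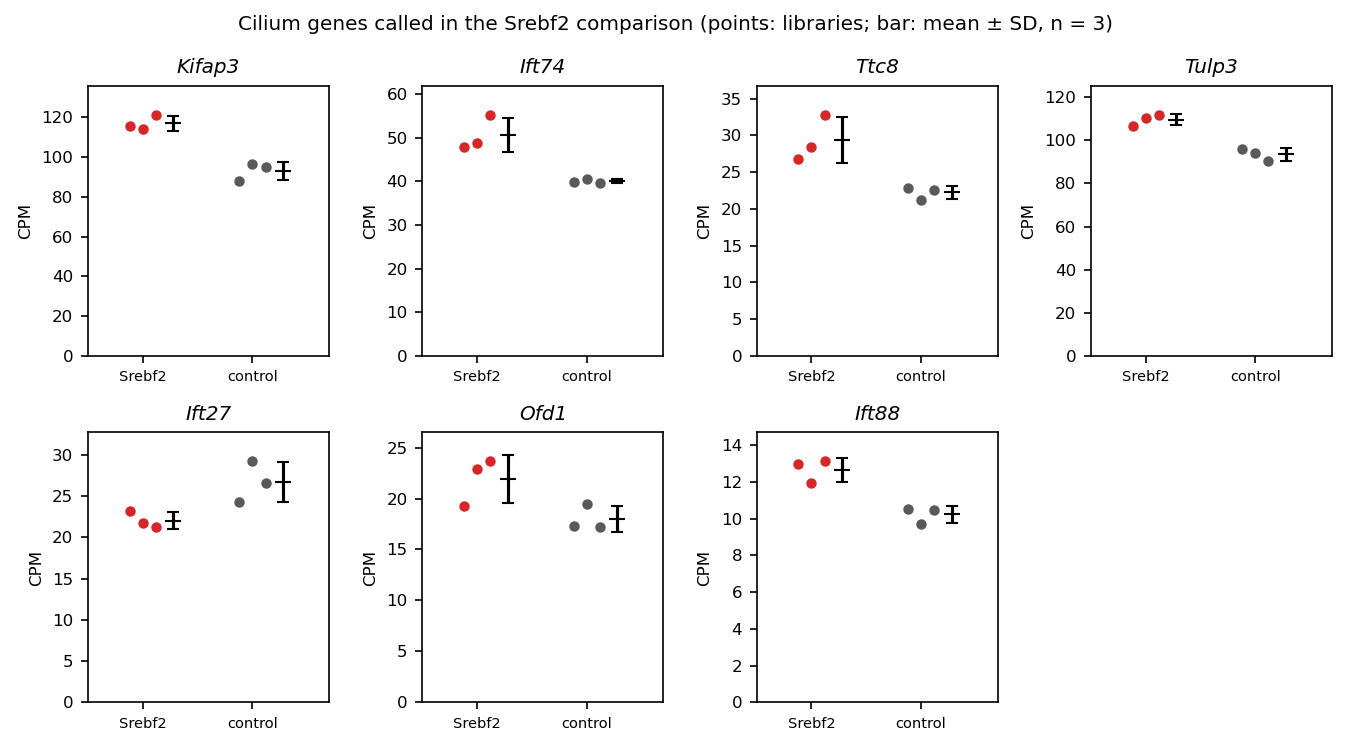
Normalised counts (CPM) of the 7 genes called with Srebf2, with Srebf2 libraries left of their controls. Points are single libraries and bars the mean ± SD (n = 3). Ift27 is lower in Srebf2 libraries, the other 6 are higher, and Ofd1 alone has overlapping groups.

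By complex, IFT-A spanned log2 fold changes of -0.11 to 0.23 with Srebf2, with Wdr19, a core subunit, at 0.23 (edgeR adjusted p = 0.0576) and Ttc21b, which works in retrograde transport, at 0.17 (0.0648) closest to the threshold. The remaining 9 BBSome genes spanned -0.30 to 0.22, with Bbs12, another chaperonin-like assembly factor, lowest. Bbs12 had 9.18, 9.34 and 9.24 CPM in Srebf2 libraries, against 11.4, 12.6 and 10.2 CPM in controls, all lower (edgeR adjusted p = 0.0754). Of the 8 transition zone and base genes, 5 had negative values, and Evc2, a Hedgehog signalling protein of the ciliary base, had the lowest at -0.16 (edgeR adjusted p = 0.0591). In all 30 libraries fitted together, with a shared estimate of the spread, 2 of the 43 genes stayed called (Ttc8 and Kifap3), beside 3.52% of all genes tested. On log2(TPM + 1) with limma, 4 were called (Ift46, Ttc8, Kifap3 and Tulp3), beside 8.47%. The implied fragment length was 222 to 227 bases in Srebf2 libraries, against 229 to 247 in controls, without overlap. Its part in these changes was not tested; over the 43 genes the rank correlation of the change with transcript length was -0.01, and over all genes tested 0.19.

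A relaxed form of the sterol regulatory element to which Srebf2 binds, TCACNCNAC on both strands, lay in the promoter windows of 4 of the 39 genes (10.3%, against 3.15% of all genes with a window), with none overlapping an X-box. They are shown because Srebf2 is the delivered factor in this comparison. Sites for the other factors were searched too. The Egr site GCGNGGGCG lay in 6 of the 39 genes (15.4%, against 6.27% of all). The AP-1 site TGANTCA lay in 1 (2.56%, against 8.97%) and the Snail E-box CAGGTG in 3 (7.69%, against 22.6%). The homeodomain core TAATTA lay in 0, against 6.12% of all. Of the 7 genes called with Srebf2, 2 (Kifap3 and Ift88) hold a match, the same number as hold the X-box core GTTGCC or the Snail E-box CAGGTG. Kif3b and Wdr35 carry a match and were not called (log2 fold changes of 0.12 and 0.02). A match shows only that the letters are present.

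Kifap3 (chr1:163779570-163779594, plus strand): ctgtagctGTCGCGTGAgcgcatgc
Ift88 (chr14:57423880-57423904, plus strand): ctcggggtTCACTCGACcttggttt
Kif3b (chr2:153291166-153291190, plus strand): gaaagcgcGTAGTGTGAccaagata
Wdr35 (chr12:8973914-8973938, plus strand): gatcaactTCACCCCACaccaatta

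Of 84 tested genes on 7 lists of other ciliary genes, 10 rose and 2 fell with Srebf2, beside 8.63% higher and 8.68% lower over all genes tested. The 12 calls make a share below the 17.3% over all genes. The 6 with the largest change were Pcm1, the scaffold of centriolar satellites (log2 0.40, edgeR adjusted p = 0.000247), B9d2, a partner of B9d1 (-0.35), Rfx7, of the RFX family (0.31), Cep83, which docks the basal body (0.31), Ttbk2, a kinase that starts cilium growth (0.29), and Nedd9, of cilium disassembly (0.29). By list, 3 of 10 disassembly genes and 3 of 19 basal body genes rose. None of the 11 genes of Hedgehog signalling at the cilium was called.

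With doxycycline in Prrx1-transduced cells, none of the 43 genes was called, beside 6.19% of the 13633 genes tested (3.45% higher, 2.74% lower). At an unadjusted p under 0.05, 5 were higher and 1 lower, beside 9.34% and 9.21% of all genes. DESeq2 called none of the 43 either. The IFT-A genes all had positive values, with a median log2 fold change of 0.33, beside -0.01 for all genes tested. Values were positive in 26 of the 43 genes together, beside 48.8% of all genes tested. In 3 of the 6 IFT-A genes (Ift140, Ttc21b and Wdr35) every doxycycline library lay above every library without it, beside 13.4% of all genes tested. Over all 43 genes, 6 stood apart higher, near that share, and 1 lower, beside 1642 of the 13633 genes tested. For Wdr35 the lowest value with doxycycline was 44.46 CPM and the highest without it 44.44 CPM. In TPM the groups of Wdr35 overlapped (lowest with doxycycline 16.2, highest without it 16.6). Those of Ift140 overlapped too (13.99 and 14.21 TPM), and those of Ttc21b did not. The other complexes had medians of -0.03 (motors) to 0.17 (transition zone and base).

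Ift140, an IFT-A core subunit, had 33.9, 36.6 and 43.6 CPM with doxycycline, against 24.8, 31.2 and 28.3 CPM without it. The groups did not overlap, and the log2 fold change was 0.45 ± 0.14 (SE, edgeR adjusted p = 0.0854). Wdr19 had 48.2, 47.1 and 37.3 CPM with doxycycline, against 33.1, 24.0 and 38.9 CPM without it, and the groups overlapped by 1 library (log2 0.46 ± 0.17 SE, edgeR adjusted p = 0.174). Ift43 had the largest value, 0.57 ± 0.39, at only 1.63 to 4.77 CPM, and overlapped. In IFT-B, Ift20 had 17.6, 15.8 and 16.9 CPM with doxycycline, against 22.2, 23.5 and 20.4 CPM without it. Every doxycycline library was lower, with a log2 fold change of -0.39 ± 0.14 (SE, edgeR adjusted p = 0.128). In TPM its groups overlapped (52.3, 40.2 and 47.4 with doxycycline, against 48, 59.7 and 54.4 without it). Transcript Ift20-201 held 21.5, 9.19 and 4.62% of its counts with doxycycline, against 2.52, 0 and 2.15% without it. The part of this shift was not tested. Ift80, a peripheral IFT-B subunit, had 46.1, 49.7 and 51.8 CPM with doxycycline, against 35.5, 44.9 and 38.6 CPM without it, also without overlap (log2 0.32 ± 0.12 SE, edgeR adjusted p = 0.160). Rpgrip1l, a transition zone scaffold, had 45.1, 46.7 and 48.4 CPM with doxycycline, against 35.6, 41.4 and 38.3 CPM without it, and stood apart too (log2 0.29 ± 0.11 SE, edgeR adjusted p = 0.161). At the low end, Mks1, also of the transition zone, had 5.57, 3.98 and 3.64 CPM with doxycycline, against 4.54, 1.64 and 2.80 CPM without it, and its groups overlapped.

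**Figure D4:**
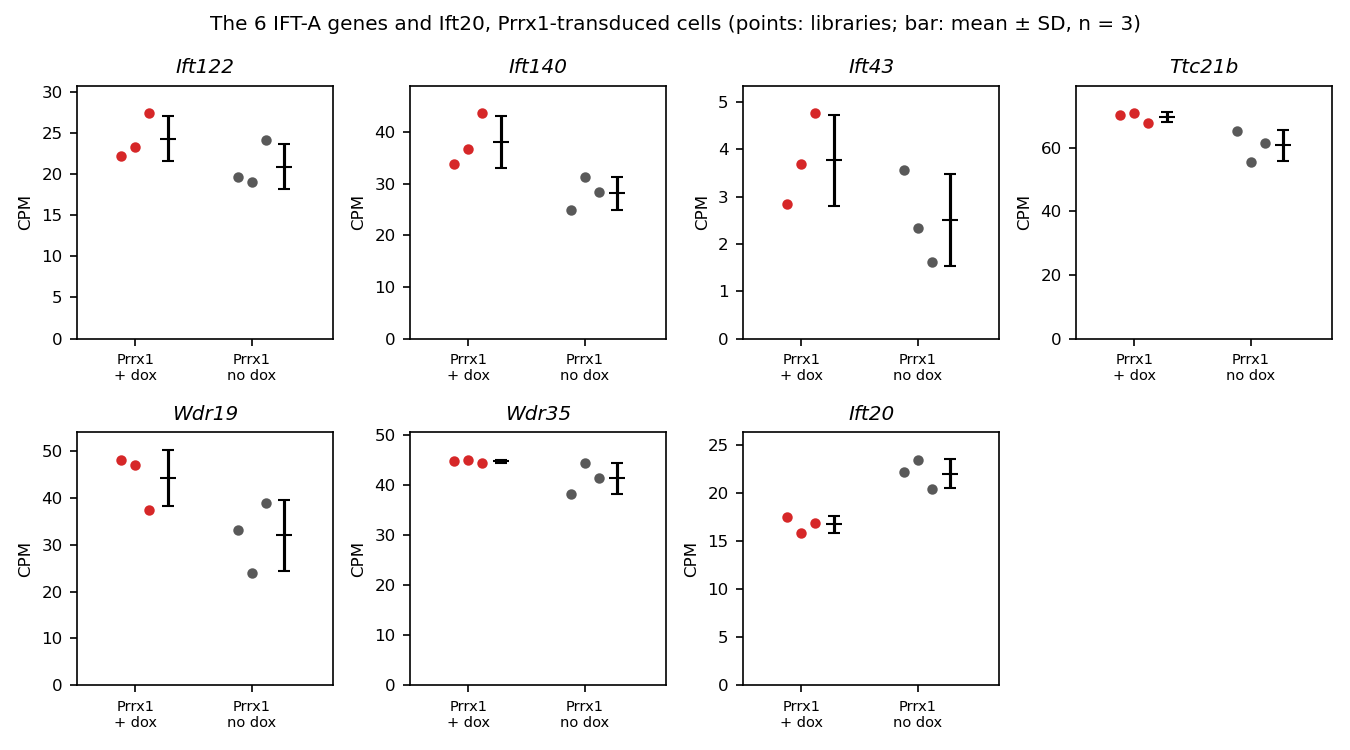
CPM of the 6 IFT-A genes and of Ift20 in Prrx1-transduced cells, with doxycycline left and without it right. Points are single libraries and bars the mean ± SD (n = 3). The mean of each IFT-A gene is higher with doxycycline and that of Ift20 is lower, and none of the 7 passed the test.

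These results moved with the model. The fit of all 30 libraries called 4 of the 43 genes (Ift140, Wdr19 and Ift22 higher, Ift20 lower), beside 16.9% of all genes tested, and without no-doxycycline replicate 2 the count was 2 (Ift140 and Ift80, both higher), beside 8.91% of all genes tested (4.51% higher, 4.41% lower). All 6 IFT-A values were positive in 14 of the 15 settings, the main one included, and in the stricter filter 5 were, which was the number it tested. The implied fragment length was 187 to 189 bases with doxycycline, against 162 to 175 without it, and did not overlap. The rank correlation of the change with transcript length was 0.22 over the 43 genes and 0.21 over all genes tested, which share these libraries. The summed level of 12 motile-cilium markers was 8.44 to 10.5 TPM with doxycycline, against 5.31 to 6.83 TPM without it, and 10 of the 12 averaged under 1 TPM over all libraries. The part of these measures in the IFT-A values was not tested.

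Among the other ciliary lists, 4 of 84 tested genes rose with doxycycline and none fell, beside 3.45% of all genes higher and 2.74% lower, a count near the background. Gli2, the main activator among the Gli factors, had 66.3, 62.1 and 58.8 CPM with doxycycline, against 19.6, 27.4 and 20.4 CPM without it (log2 1.48 ± 0.14 SE, edgeR adjusted p = 5.88e-05). Gas1, a Hedgehog co-receptor, rose by 0.88 on the log2 scale (edgeR adjusted p = 0.0232), and Kif2a and Nedd9, both of cilium disassembly, by 0.33 and 0.28.

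With transfected Prrx1, none of the 43 genes was called, beside 3.0% of the 13110 genes tested (1.94% higher, 1.06% lower). At an unadjusted p under 0.05, 1 was higher and 4 lower, beside 9.54% and 7.7% of all genes, and DESeq2 called none. Their median was -0.05, beside 0.00 for all genes tested. In 2 genes all Prrx1 libraries lay above all controls and in 4 below, beside 9.82% and 9.32% of all genes. Ttc8 had 21.6, 20.0 and 18.4 CPM with Prrx1, against 22.5, 26.8 and 25.0 CPM in controls, without overlap (log2 -0.31 ± 0.09 SE, edgeR adjusted p = 0.0979). Ift20 had 26.9, 24.8 and 25.7 CPM with Prrx1, against 24.4, 17.5 and 19.0 CPM in controls, and every Prrx1 library lay above every control (log2 0.35 ± 0.11 SE, edgeR adjusted p = 0.122). Ift27 had 19.2, 21.4 and 20.3 CPM with Prrx1, against 27.1, 22.3 and 23.4 CPM in controls, all lower (log2 -0.26 ± 0.10 SE, edgeR adjusted p = 0.193).

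With transfected Snai1, set against the same controls, none of the 43 genes was called either, beside 1.62% of genes tested (1.14% higher, 0.481% lower). At an unadjusted p under 0.05, 2 were higher and 4 lower, beside 9.27% and 7.0% of all genes, and DESeq2 called none. B9d1, of the transition zone complex that holds membrane proteins in, had 9.93, 10.1 and 9.86 CPM with Snai1, against 8.13, 6.79 and 7.88 CPM in controls. All Snai1 libraries were higher (log2 0.39 ± 0.11 SE, edgeR adjusted p = 0.0999). Ift27 had 21.5, 18.2 and 19.5 CPM with Snai1, against 27.1, 22.3 and 23.4 CPM in the shared controls, and Ttc8 had 21.3, 20.6 and 19.5 CPM, against 22.5, 26.8 and 25.0 CPM. Both were lower in every Snai1 library (log2 -0.30 and -0.28, edgeR adjusted p = 0.144 and 0.152). On log2(TPM + 1) with limma the sign of Ttc8 turned, to 0.21. Over the 43 genes, 3 stood apart higher and 9 lower with Snai1, beside 10.4% and 10.2% of all genes, and 30 of the 43 had negative values, with a median of -0.08, beside 0.00 for all genes tested, of which 50.7% had positive values. Among those standing apart lower were Inpp5e, the phosphoinositide phosphatase of the ciliary membrane (log2 -0.29), and Arl6, the GTPase that recruits the BBSome (-0.23). Inpp5e shares sequence with Pmpca on the opposite strand, so its counts are uncertain.

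Both counts rested on control replicate 1. In Ift20 it stood at 24.4 CPM, against 17.5 and 19.0 in the other controls, and in Wdr19 at 17.5 CPM, against 21.8 and 21.9. Without that library, 6 of the 43 genes were called with Prrx1, beside 19.7% of all genes tested (11.0% higher, 8.71% lower). Ift43, Ift20, Ift22 (a small GTPase of IFT-B) and Evc2 were higher, and Wdr19 and Ttc8 lower. With Snai1 the count was 10, beside 22.9% (12.4% higher, 10.4% lower), with Ift20, Ift22, B9d1 and Evc2 higher and Wdr19, Ift80, Ift88, Ttc8, Kifap3 and Rpgrip1l lower. The implied fragment length of that control was 251 bases, against 245 and 246 in the other controls. Over all genes tested, the rank correlation of the change with transcript length was -0.30 for Prrx1 and -0.35 for Snai1 without the library, against -0.10 and -0.17 with it. Over the 43 genes it was -0.10 and -0.16 without it, against 0.06 and 0.02 with it. The part of fragment length in these calls was not tested.

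No gene of the 43 differed between Snai1 and Prrx1 libraries, beside 0.252% of genes tested (0.0305% higher, 0.221% lower), and 1 was lower and none higher at an unadjusted p under 0.05, beside 3.14% lower and 2.33% higher over all genes (DESeq2 called none). That gene was Ofd1, with 18.8, 17.4 and 14.7 CPM in Snai1 libraries, against 19.5, 22.5 and 21.7 CPM in Prrx1 libraries. The groups did not overlap, with a log2 difference of -0.32 ± 0.10 (SE, edgeR adjusted p = 0.638). B9d1 had 9.93, 10.1 and 9.86 CPM in Snai1 libraries, against 8.04, 8.82 and 8.83 CPM in Prrx1 libraries, and Rpgrip1l had 16.4, 16.7 and 15.1 CPM, against 19.6, 18.0 and 18.7 CPM. These also stood apart, at log2 differences of 0.22 and -0.22 (edgeR adjusted p = 0.969 and 0.970). In all, 2 genes stood apart higher and 3 lower, beside 8.32% and 8.74% of all genes. Of the other ciliary lists, Fgfr1op, a protein of the centriole and basal body, rose 1.49-fold with Prrx1 (edgeR adjusted p = 0.00216), and none of 84 tested genes was called with Snai1.

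With Egr1, an immediate early factor, none of the 43 genes was called, beside 0.323% of the 14539 genes tested (0.206% higher, 0.117% lower). At an unadjusted p under 0.05, 1 was higher and 2 lower, beside 5.61% and 4.62% of all genes (DESeq2 called none). Dync2h1 had 23.9, 25.7 and 26.4 CPM with Egr1, against 19.4, 21.9 and 20.4 CPM in controls, without overlap (log2 0.30 ± 0.07 SE, edgeR adjusted p = 0.141). Ofd1 had 19.7, 19.2 and 19.1 CPM with Egr1, against 23.9, 22.9 and 21.9 CPM in controls, all lower (log2 -0.24 ± 0.07 SE, edgeR adjusted p = 0.184). Wdr35, an IFT-A subunit, had 35.9, 38.7 and 36.1 CPM with Egr1, against 40.7, 41.7 and 41.9 CPM in controls, also lower (log2 -0.17 ± 0.07 SE, edgeR adjusted p = 0.437). In 2 genes the Egr1 libraries lay above all controls and in 5 below, beside 8.15% and 7.46% of all genes.

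With Jun, an AP-1 subunit, none of the 43 was called, beside 0.956% of genes tested (0.454% higher, 0.502% lower). At an unadjusted p under 0.05, 3 were higher and none lower, beside 7.68% and 7.61% of all genes (DESeq2 called none). All 5 motor genes had positive values, of 0.03 to 0.19. So did 28 of the 43 genes together, beside 48.1% of all genes tested, and 5 of the 8 transition zone and base genes were negative. Dync2h1 had 22.1, 23.6 and 24.9 CPM with Jun, against 19.4, 21.9 and 20.4 CPM in the controls shared with Egr1 (log2 0.19 ± 0.07 SE, edgeR adjusted p = 0.233). Ttc21b had 69.1, 69.7 and 69.5 CPM with Jun, against 67.3, 59.1 and 63.6 CPM, and Kifap3 90.5, 93.7 and 95.2 CPM, against 87.3, 88.4 and 83.0 CPM. In all 3 genes the Jun libraries lay above the controls, by 0.11 to 0.19 on the log2 scale. Standing apart were 4 genes higher and 2 lower, beside 11.4% and 11.2% of all genes. No gene differed between Jun and Egr1 libraries, beside 0.44% of genes tested (0.103% higher, 0.337% lower), with 1 higher and none lower at an unadjusted p under 0.05, beside 4.94% and 6.84% of all genes, and none called by DESeq2. That gene was Kifap3, with 90.5, 93.7 and 95.2 CPM with Jun, against 84.2, 90.9 and 83.2 CPM with Egr1, and the groups overlapped (log2 0.11 ± 0.05 SE, edgeR adjusted p = 0.373). Ttc8 had 25.9, 25.5 and 25.6 CPM with Jun, against 24.0, 24.3 and 21.7 CPM with Egr1, and Ttc21b had 69.1, 69.7 and 69.5 CPM with Jun, against 64.6, 67.7 and 63.5 CPM with Egr1. In Ttc8 and Ttc21b the Jun libraries were all higher. Groups did not overlap in 3 genes higher and 0 lower, beside 8.49% and 9.18% of all genes. None of 87 tested genes on the other ciliary lists was called with either factor.

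The counts with Egr1 and Jun differed under limma on TPM, where unit, scaling, filter and test all change together, and which of these moved them was not tested. On log2(TPM + 1) with limma, 4 of the 43 genes were called higher with Egr1 (Ttc21b, Ift80, B9d1 and Evc2), beside 9.29% of genes called higher, and 4 with Jun (Ttc21b, Ift80, Ttc8 and Kifap3), beside 17.4%. On that scale the median of all genes lay at 0.15 with Egr1 and at 0.14 with Jun, and the medians of the 43 genes at 0.18 and 0.17. Ttc8 had 23.9, 23.9 and 20.6 TPM with Jun, against 15.7, 16.3 and 16.1 TPM in controls.

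Prrx1 was delivered in 2 ways, and the changes themselves were compared in 1 fit of 15 libraries. Ift20 alone differed, with a log2 difference of -0.74 ± 0.17 between the doxycycline and the transfection effect (SE, edgeR adjusted p = 0.0121), beside 5.91% of the 15378 genes tested (2.83% higher, 3.08% lower). It was lower with doxycycline and higher with transfection in the values given above, and neither change passed its own test. Snai1 libraries also lay above control replicates 2 and 3 in Ift20 (values in the closing sections). The next by p were Wdr19 at 0.67 (edgeR adjusted p = 0.0669) and Ift140 at 0.47 (0.0859). The count was 2 without doxycycline replicate 3, no-doxycycline replicate 3 or control replicate 1 of the transfection, with Wdr19 added. It was also 2 without no-doxycycline replicate 1, with Mks1 added. Without no-doxycycline replicate 2 it was 3, with Ift140 and Inpp5e added, and Ift20 was called each time. No share over all genes is given for these fits, so the counts cannot be set against the background.

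Counts per transcript within a gene were also examined for Ift57, an IFT-B subunit, which was chosen after its values were seen. Its 2 main transcripts, Ift57-201 (2601 bases) and Ift57-204 (1582 bases), both on the plus strand of chromosome 16, are annotated as coding. Ift57-204 held 26.0, 38.3 and 22.9% of the gene's counts with Prrx1 and 33.4, 24.9 and 30.3% with Snai1, against 50.6, 60.5 and 49.7% in their controls. It held 56.5, 59.4 and 63.7% with Srebf2, against 44.4, 40.3 and 45.1% in controls. In these 3 comparisons the groups did not overlap, but no test is given because the transcript was picked for these values, and Prrx1 and Snai1 share their controls. With doxycycline, Egr1 and Jun the groups overlapped. The gene's total count was not called in any of the 6 comparisons.

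**Figure D5:**
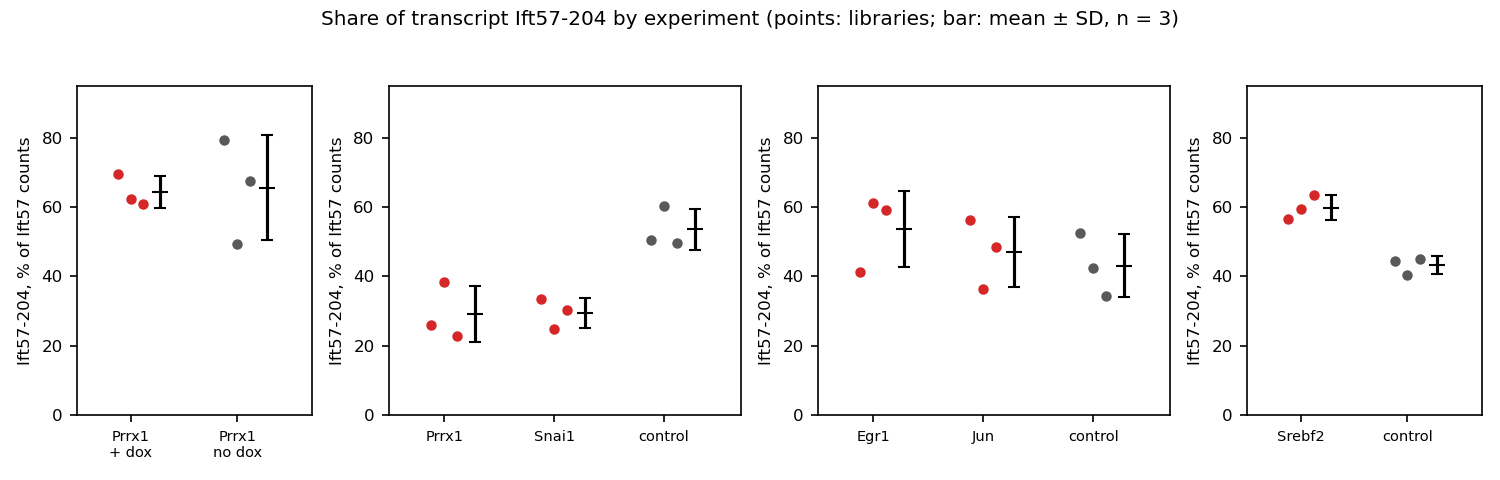
Share of Ift57 counts assigned to transcript Ift57-204, in percent, by experiment, with treated groups left of their controls. Points are single libraries and bars the mean ± SD (n = 3). Prrx1 and Snai1 libraries lie below their controls and Srebf2 libraries above theirs.

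Shifts of this kind were not rare. A transcript share that differed by at least 10 percentage points without overlap was found in 3 of 69 eligible transcripts of the 43 genes with Prrx1, 6 of 71 with Snai1, 4 of 67 with Srebf2, 6 of 93 with doxycycline and none with Egr1 or Jun. Over all genes the percentages were 7.16% with Prrx1, 6.93% with Snai1, 7.27% with Srebf2, 5.11% with doxycycline, 2.03% with Egr1 and 2.5% with Jun. The 2 Ift57 transcripts count as 2 of these and mirror each other. These are point estimates of read assignment whose own error was not analysed here.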

How the data were processed

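Bulk mRNA sequencing of NIH3T3-CG cells gave 30 libraries in 10 groups of 3. Per the submitters' processing notes the authors used kallisto 0.43.0 and build mm10. The deposited tables give estimated counts and TPM per transcript for 118491 targets. Annotation release and strand are not given in the sources used here. With GENCODE M21, 116816 targets matched, 1673 did not (0.605 to 0.694% of counts) and 2 were added sequences. Estimated counts were summed per gene and rounded.

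Genes kept by filterByExpr (minimum count 10, total 15) were scaled by TMM and tested, either direction, by the robust quasi-likelihood test of edgeR (version 4.0.16, R version 4.3.3), with Benjamini-Hochberg adjustment over all genes tested and a threshold of 0.05. Groups with shared controls were fitted together, each of the 4 experiments in its own fit. The fits were also run on counts simulated from their own estimates of level and spread. Such counts hold no outlying library and no difference in fragment length, so they cannot speak to either. CPM in comparisons is TMM-scaled within an experiment, and CPM per kb uses library totals and the count-weighted transcript length. Counting error only is covered by depth. The 43 genes and all lists were chosen with earlier results of these data known. Each gene called, or the 3 with the smallest p where fewer than 3 were, is given in every library. Tctn1 (73.7%) and Inpp5e (81.1%) share 31-base words with Hvcn1 and Pmpca on the opposite strand and are uncertain. The other 41 genes had at least 93.2% unique words.

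Alternatives were DESeq2 1.42.0, relative log expression scaling, no filter, a filter of 5 CPM in 3 libraries, limma 3.58.1 on log2(TPM + 1) and log2(TPM + 0.1) at a mean TPM of at least 1, all 30 libraries, only the compared groups, the replicate number as a block, and each library left out.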

Additional observations from a re-analysis of the deposited data

Results flagged for a closer look

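Ift20 is named here because its effect differed between the 2 ways of delivering Prrx1, by a test of the difference itself (doxycycline minus transfection, log2 -0.74, edgeR adjusted p = 0.0121). The difference stayed negative and under the threshold in all 21 other settings, from -0.90 to -0.65 with adjusted p of 0.00045 to 0.0392. The rank correlation of this difference with transcript length was 0.19 over all genes tested and 0.15 over the 43 genes. Over all genes, those under 2500 bases had a median of -0.13 and longer ones of 0.03. Among the 43 genes these medians were 0.10 and 0.11. Ift20 has a count-weighted length of 983 bases, and the part of length was not tested. With Snai1, Ift20 had 24.05, 25.35 and 22.87 CPM, against 24.39, 17.48 and 18.96 CPM in the controls shared with Prrx1. Prrx1 and Snai1 libraries alike lay above control replicates 2 and 3, so the transfection side was not seen with Prrx1 alone. Delivery, the presence of doxycycline, the level of Prrx1, the control libraries, depth and fragment length differ between the experiments and cannot be told apart.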

How the results depend on the processing

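The count of called genes stayed at 0 with Egr1 and Jun, in Snai1 against Prrx1 and in Jun against Egr1 when each library was left out. Leaving out libraries gave 0 to 2 with doxycycline (2 beside 8.91% of all genes tested), 0 to 6 with Prrx1 (6 beside 19.7%) and 0 to 10 with Snai1 (10 beside 22.9%). It gave 4 to 9 with Srebf2 and 1 to 3 for the doxycycline minus transfection difference. Counts in this section with no share over all genes beside them cannot be set against the background. Without a filter the count was 2 with doxycycline and 2 for that difference. In all 30 libraries it was 4 with doxycycline (beside 16.9%), 1 with Prrx1 (Ttc8), 2 with Srebf2 (beside 3.52%) and 3 for the difference. DESeq2 gave 2 for the difference. Both limma settings gave 1 with Prrx1 (Ift20), 4 with Egr1, 4 with Jun and 4 with Srebf2. At a pseudocount of 1 these stood beside 3.69%, 9.44%, 17.7% and 8.47% of all genes tested. Ttc8 with Snai1 reversed on TPM, to 0.21 and 0.22 on the log2 scale at pseudocounts of 1 and 0.1. What moved these counts and values was not tested.

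With the replicate number as a block, 7 genes were called with Srebf2, 1 for the difference and 0 elsewhere. No comparison had all same-numbered pairs correlated above 0.1, and the labels give no pairing. With so few libraries per group these correlations cannot exclude one. With doxycycline alone every library correlated best with its own number, at correlations of 0.0546, 0.0551 and 0.00557. Values this small cannot decide whether the libraries were paired. The median standard error of a log2 change was 0.16 with doxycycline, the shallowest libraries, and 0.07 with Egr1, the deepest.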
